A study of Mus musculus with 7 samples.

Results

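The late transient regions are stretches of chromatin that had an ATAC-seq peak on day 6 and on day 9 of reprogramming and in no other library of the series. They were chosen by the peak calls themselves. Touching or overlapping peaks of all 7 libraries were merged into 104346 regions, and those with a peak on both days but none on day 0, 1, 2 or 3 or in ESCs were kept, which left 646 regions, 0.619% of the total. Presence, absence and peak width therefore describe how the regions were selected, whereas their position in the genome and their sequence were not used.

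Open chromatin was measured by ATAC-seq, in which the Tn5 transposase cuts accessible DNA, in 7 mouse libraries. Mouse embryonic fibroblasts (MEFs) carried the Col1a1tm1(tetO-Pou5f1,-Klf4,-Sox2,-Myc) allele, brought in from a B6;129S4 parent, together with Gt(ROSA)26Sortm1(rtTA*M2), brought in from a B6.Cg parent. They were taken before treatment (day 0) and after 1, 2, 3, 6 and 9 days in 2 µg/mL doxycycline. Doxycycline lets the rtTA*M2 activator, expressed from the ubiquitous ROSA26 locus, switch on a single cassette of OCT4, KLF4, SOX2 and c-MYC (OKSM) in the Col1a1 locus, so all MEF libraries carry the transgenes, day 0 included. The last library is from untreated embryonic stem cells (ESCs) of the Bruce-4 line, to which the labels give the MEF genotype, and which grew with LIF in ESC medium. In the protocol of this system the treated cells are moved to ESC medium once the first colonies emerge, which falls between the day 6 and day 9 libraries, so doxycycline time and medium cannot be told apart between these libraries. Each time-point is 1 library made from a whole culture, in which cells that reprogram and cells that do not are mixed, and there are no replicates. The intervals given below are exact (Clopper-Pearson) 95% intervals over regions, cover counting error only, and say nothing about the spread between cultures.

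The peak files hold positions only, with 44855 peaks on day 6, 33007 on day 9 and between 27074 and 61241 in the libraries as a whole. Reads were brought to a common depth by the authors before peaks were called, and the number of reads behind each peak is unknown. A library without a peak is thus a library in which no peak was called, which at this depth does not show that the site was closed. As a check of the labels, 27 of 33 fibroblast genes had a peak within 1000 bp of a TSS in the day 0 library, 27 in that of day 6, 22 in that of day 9 and 12 in that of ESCs, where Col1a1 and Pdgfrb had none. Of 36 pluripotency genes 19 had one in the day 0 library, Pou5f1 and Esrrb among them, 16 in the day 6 library, 16 in the day 9 library and 13 in the ESC library, where Pou5f1 and Zfp42 had one but Nanog and Esrrb did not. Peaks near the starts of the pluripotency genes thus did not set the ESC library apart from day 0. Fibroblast genes had fewer in the ESC library (12 of 33) than on day 0 (27 of 33).

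An accessible site in the genome is usually an enhancer, a promoter or a binding site for a structural protein such as CTCF, and transcription factors hold it free of nucleosomes. During reprogramming OCT4, SOX2 and KLF4 can engage closed chromatin, while the fibroblast enhancers, which are rich in AP-1 and RUNX motifs, are shut down. Sites called late in this process and not in ESCs were called neither in the starting cell nor at the endpoint. ZEB and SNAI proteins, which hold cells in a mesenchymal state and bind the CAGGTG form of the E-box, are turned down as cells become epithelial.

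The motif results below rest on short sequences, and 8 regions from those named by rule show what they look like. They are printed 5′ to 3′ on the plus strand of mm10, as the central 300 bp of the region or, for Gata4, the whole 200 bp region, in lower case. Capitals mark matches of the 10 motifs plotted by set (CAGGTG, KLF, OCT-SOX core, octamer, SOX, TEAD, FOX, CTCF, AP-1 and RUNX), while matches of the other motifs searched stay in lower case. Each region is called by its nearest protein-coding gene, which is a label and not a shown target. The first 4 hold CAGGTG or its reverse complement CACCTG, the motif whose share was furthest above that of the early transient regions. They lie 21825 bp upstream of Epn2, an endocytic adaptor (chr11:61601362-61601661), in an intron of Gata4, a transcription factor of heart and endoderm (chr14:63207070-63207269), 7409 bp downstream of the start of Msx1, a homeobox factor of the neural crest (chr5:37817024-37817323), and in an intron of Tcf7l1, a repressor at Wnt targets in ESCs (chr6:72731092-72731391), which has 2 copies. In Epn2 the second stretch of capitals is a RUNX match. This match and the second Tcf7l1 copy run past the edge of the central 200 bp and are not in the motif counts below.
Epn2: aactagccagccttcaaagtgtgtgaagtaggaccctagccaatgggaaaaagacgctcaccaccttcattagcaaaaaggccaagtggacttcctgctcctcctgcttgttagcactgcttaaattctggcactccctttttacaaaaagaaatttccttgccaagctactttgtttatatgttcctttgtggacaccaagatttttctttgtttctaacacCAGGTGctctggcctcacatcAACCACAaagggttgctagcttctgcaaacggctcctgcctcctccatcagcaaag
Gata4: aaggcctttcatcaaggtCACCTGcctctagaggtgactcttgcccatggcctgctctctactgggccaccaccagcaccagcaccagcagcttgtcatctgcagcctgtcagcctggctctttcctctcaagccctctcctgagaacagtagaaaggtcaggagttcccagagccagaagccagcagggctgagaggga
Msx1: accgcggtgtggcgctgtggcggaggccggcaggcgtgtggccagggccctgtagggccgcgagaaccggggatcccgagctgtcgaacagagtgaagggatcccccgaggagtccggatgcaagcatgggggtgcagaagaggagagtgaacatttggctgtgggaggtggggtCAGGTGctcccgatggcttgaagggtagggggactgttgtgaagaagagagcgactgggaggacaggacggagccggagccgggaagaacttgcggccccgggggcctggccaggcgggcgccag
Tcf7l1: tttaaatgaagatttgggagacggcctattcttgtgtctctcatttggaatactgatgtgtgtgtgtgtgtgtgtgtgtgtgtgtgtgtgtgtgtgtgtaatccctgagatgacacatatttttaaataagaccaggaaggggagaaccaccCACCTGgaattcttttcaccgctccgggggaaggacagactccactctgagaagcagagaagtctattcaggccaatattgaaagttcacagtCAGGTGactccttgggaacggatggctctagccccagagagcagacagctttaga
The next 2 show the KLF motif GGGNGTGG, bound by KLF4 and its relatives, 4115 bp upstream of the simple epithelial keratin gene Krt18 (chr15:102023915-102024214) and, with 3 copies, in an intron of Cd44, the hyaluronan receptor (chr2:102881524-102881823). The first Cd44 copy lies outside the central 200 bp.
Krt18: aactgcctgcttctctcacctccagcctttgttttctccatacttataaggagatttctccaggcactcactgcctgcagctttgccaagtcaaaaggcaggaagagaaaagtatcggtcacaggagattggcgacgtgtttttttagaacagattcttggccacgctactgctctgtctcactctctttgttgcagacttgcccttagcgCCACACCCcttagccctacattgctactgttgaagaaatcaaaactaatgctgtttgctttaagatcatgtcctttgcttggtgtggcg
Cd44: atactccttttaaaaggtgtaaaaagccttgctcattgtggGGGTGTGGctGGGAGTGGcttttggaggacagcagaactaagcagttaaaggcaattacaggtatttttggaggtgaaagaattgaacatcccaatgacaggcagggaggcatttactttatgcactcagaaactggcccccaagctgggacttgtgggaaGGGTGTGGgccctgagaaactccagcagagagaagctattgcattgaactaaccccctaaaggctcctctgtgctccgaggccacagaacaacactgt
The last 2 show the OCT-SOX core TTGTNATGC in an intron of the neutral amino acid transporter gene Slc1a4 (chr11:20320763-20321062) and the AP-1 motif TGANTCA in an intron of Acsm1, a medium-chain acyl-CoA synthetase gene (chr7:119630317-119630616). The OCT-SOX core was in 1.86% of the late transient regions and AP-1 in 7.12%, against 1.03% and 16.0% of all merged regions.
Slc1a4: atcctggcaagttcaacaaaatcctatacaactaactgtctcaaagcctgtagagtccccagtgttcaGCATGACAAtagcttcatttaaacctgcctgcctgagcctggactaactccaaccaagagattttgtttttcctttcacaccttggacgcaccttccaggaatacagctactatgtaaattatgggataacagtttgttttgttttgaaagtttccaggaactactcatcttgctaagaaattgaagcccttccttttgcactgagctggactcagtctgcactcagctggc
Acsm1: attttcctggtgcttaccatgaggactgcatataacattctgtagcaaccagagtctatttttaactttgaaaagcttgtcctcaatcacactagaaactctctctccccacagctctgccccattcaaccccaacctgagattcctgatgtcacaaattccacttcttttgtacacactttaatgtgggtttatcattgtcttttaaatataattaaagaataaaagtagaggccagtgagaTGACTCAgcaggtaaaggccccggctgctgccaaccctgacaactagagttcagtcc

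The late transient regions were a small share of the regions first called on day 6. Of 5415 regions with a peak on day 6 and none on days 0 to 3, 777 also had one on day 9, and 646 of those had none in ESCs, which is 11.9% of the 5415. A further 131 were also called in ESCs and are named late kept regions here. The majority, 4310, had a peak on day 6 alone. By comparison 1812 regions had a peak on day 9 alone and 2959 on all 5 doxycycline days but neither on day 0 nor in ESCs. Among pairs of doxycycline days, day 6 with day 9 was the third most frequent exclusive pair, after day 1 with day 3 (1456 regions) and day 3 with day 6 (1166 regions), and ahead of day 1 with day 6 (592 regions), which are not neighbouring time-points. These counts are not corrected for the number of peaks, which differs between libraries. Membership also turned on single libraries, since 983 regions would qualify if the day 0 peaks were ignored and 1286 if the day 3 peaks were.

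Peaks of the late transient regions were narrow. Their 658 day 6 peaks had a median width of 240 bp, with quartiles of 203 and 358 bp and a highest value of 635 bp, against 391 bp for all day 6 peaks. Their 657 day 9 peaks had a median of 230 bp, with quartiles of 200 and 320 bp and a highest value of 615 bp, against 389 bp for all day 9 peaks. They were wider than the peaks called on one day alone, with medians of 206 bp (day 6) and 201 bp (day 9), and narrower than the peaks of regions open on all 5 doxycycline days, with medians of 516 and 414 bp. The lowest width in the files is 200 bp, and 22.3% of their day 6 peaks and 31.2% of their day 9 peaks had exactly that width, compared with 14.4% and 14.5% of all peaks of these libraries. In 289 regions (44.7%) at least 1 of the days gave a peak of 200 bp, so many of these regions sit at the lower limit of what was called.

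**Figure D1:**
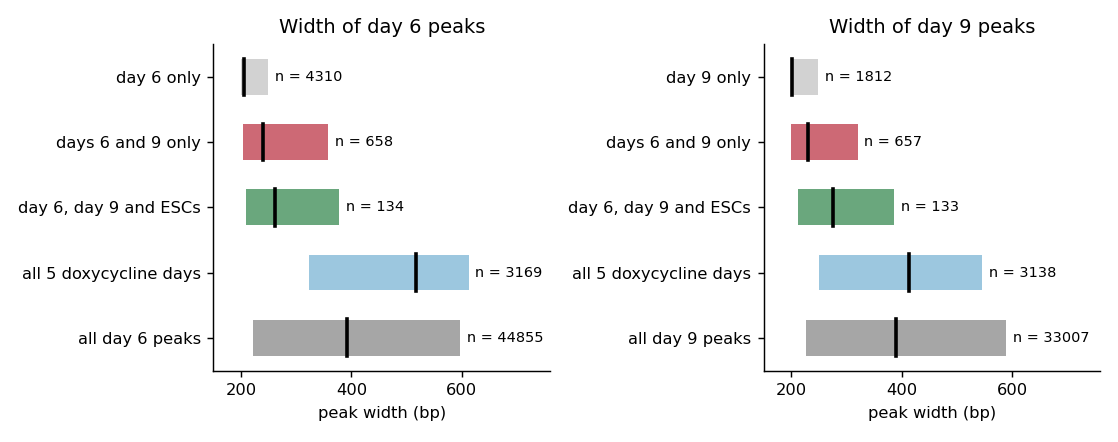
Width of day 6 peaks (left) and day 9 peaks (right) in bp. Boxes run from the lower to the upper quartile, black lines are medians, n is the number of peaks, and each time-point is 1 library. Peaks of the late transient regions (red, medians of 240 and 230 bp) lie between those called on a single day (206 and 201 bp) and those of regions open on all 5 doxycycline days (516 and 414 bp).

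In most regions the peaks of both days overlapped broadly, but not in all of them. In 623 regions each day had 1 peak, and in the other 23 a day had several, in which case its width here is the span from the first to the last base of its peaks, gaps included. In 436 of the 646 regions (67.5%) the days shared at least 50% of both widths, and in the other 210 (32.5%) less, down to 0 bp where the peaks only touched. The median shared length was 195 bp, and the median distance between their midpoints was 63.8 bp. Day 6 was the wider one in 337 regions and day 9 in 255, and 54 had equal widths (323, 246 and 54 of those with 1 peak on each day). The width was at least 300 bp on both days in 109 regions (16.9%), but a single peak of at least 300 bp was present on both days in 97. Regions were ranked by the narrower of the 2 widths, spans included. At the head of this order lay a region in an intron of Mansc4, with a day 6 peak of 610 bp and 2 day 9 peaks of 200 and 257 bp that spanned 613 bp. An intron of Acss1, nearest to Apmap, had single peaks of 628 and 605 bp. The region of Acsm1 had 2 day 6 peaks, of 351 and 263 bp with a span of 674 bp, and a day 9 peak of 574 bp. That of Epn2 had a day 6 peak of 567 bp and 2 day 9 peaks, of 200 and 256 bp with a span of 620 bp. Slc1a4 had single peaks of 583 and 543 bp. The others among the 10 widest were nearest to Celf4, an RNA-binding protein gene whose TSS was 999674 bp away, Ppp2r1b, Arhgap21, which also had 2 day 9 peaks, Tmem114 and Krt18.

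Some late transient regions had a peak of another library close by. Such distances were measured for these regions alone, so there is no share over all merged regions to set beside them. For 141 regions (21.8%, 95% interval 18.7–25.2%) a peak of 1 of the other 5 libraries lay within 500 bp, and for 53.6% within 5 kb. Within 500 bp the neighbour was a day 3 peak for 72 regions and a day 0 peak for 68, and an ESC peak for 25 (3.87%), although the ESC library also has the fewest peaks. The median distance to the nearest peak was 7958 bp for day 0 and 24259 bp for ESCs. The region at the Klf13 promoter, for example, lay 35 bp from a day 3 peak, and that at Nfib, a fibroblast transcription factor gene, 29 bp from a day 1 peak, so such regions depended on where a peak was taken to end. Without the regions that had such a neighbour within 500 bp, 505 were left, of which 18.6% held CAGGTG and 7.92% AP-1 (18.1% and 7.12% in all). The region of Acsm1 was isolated, with its nearest peak of another library 89281 bp away.

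Most late transient regions were far from promoters. Of the 646, 300 were intergenic (46.4%), 275 intronic (42.6%), 19 in untranslated exons, 11 in coding exons, and 41 (6.35%, interval 4.59–8.51%) had their midpoint within 1000 bp of the TSS of a protein-coding gene. TSS-proximal positions were less frequent than among all merged regions (15.4%) and more frequent than among the 803 early transient regions (1.62%, interval 0.865–2.75%), which had peaks on days 1, 2 and 3 and nowhere else. The late kept regions, with 16 of 131 (12.2%), had an interval that overlapped that of the late transient ones. When TSSs of all annotated genes were used the late transient share was 11.8%, and with peaks of at least 300 bp alone it was 10.6%. Introns showed the opposite order, with 42.6% (38.7–46.5%) in late and 54.3% (50.8–57.8%) in early transient regions. The median distance to a TSS was 27547 bp, compared with 36251 bp for early transient, 20017 bp for late kept and 23159 bp for all regions, and 50.8% of the late transient regions lay between 5 and 50 kb away.

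**Figure D2:**
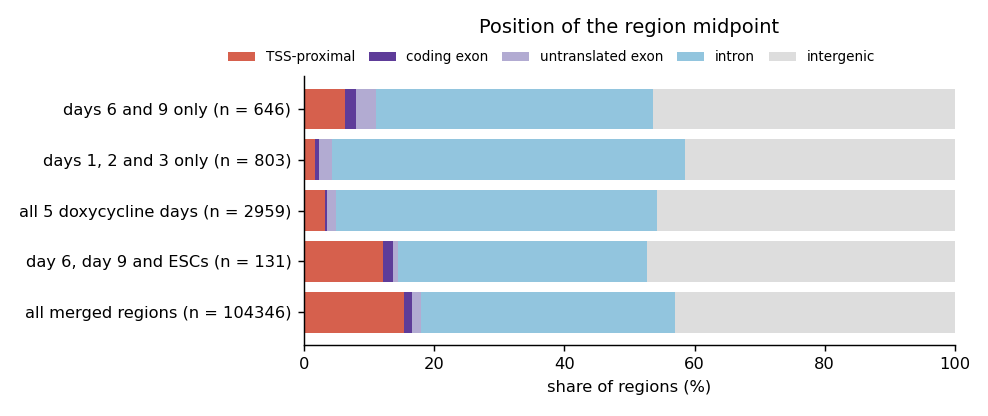
Share of regions (%) by the position of their midpoint, for the late transient regions and 4 other sets, with n regions each. TSS-proximal (within 1000 bp) positions make up 6.35% of the late transient regions, 1.62% of the early transient ones and 15.4% of all merged regions.

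Of the 41 TSS-proximal regions, the 10 ranked highest by the same rule were at genes of varied function. They lay 12 bp from a TSS of Klf13, a Krüppel-like transcription factor, with a day 6 peak of 479 bp and a day 9 peak of 418 bp, 9 bp from a TSS of Gramd1b, a sterol transporter gene, with 2 day 6 peaks that spanned 489 bp and a day 9 peak of 341 bp, and 15 bp from a TSS of Serpina3n, a protease inhibitor gene, with 444 and 336 bp. The others were at Plscr2, Abca14, Gm11627, Btg1-ps2, Epb41l3, Slc44a2, with 2 day 6 peaks, and Tmod2. Their composition ranged widely, from 22 CpG and 76.0% GC in the central 200 bp at Epb41l3, a membrane cytoskeleton gene, to no CpG at Klf13 and Btg1-ps2. At Klf13 the central window was 54.0% GC and held CAGGTG.

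The late transient regions had more GC and CpG than the early transient ones. The central 200 bp had a median GC content of 48.0%, against 43.0% in early transient and 49.5% in late kept regions and 48.5% over all. The mean number of CpG was 3.22, against 1.76 in early transient and 3.97 in late kept regions and 4.91 over all merged regions. In 16.3% of the late transient (13.5–19.3%) and 27.8% of the early transient windows (24.7–31.0%) there was no CpG. Repeats covered at least 50% of the window in 7.43% (5.53–9.73%) of late transient but 18.3% (12.1–26.0%) of late kept regions.

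A list of 24 motifs set the late transient regions apart from the early ones. Binding was not measured, so a motif match does not show which factor, if any, was bound. In the central 200 bp, on either strand, CAGGTG was found in 117 of 646 late transient regions (18.1%, 15.2–21.3%), and in 31 of 803 early transient regions (3.86%, 2.64–5.44%). Going the other way, the AP-1 motif TGANTCA was in 7.12% of the late against 26.0% of the early transient regions, the RUNX motif TGTGGTT in 2.48% against 10.7%, and the SOX motif ACAATGG in 4.80% against 9.71%. The shares over all 104248 merged regions on the main chromosomes were 11.7% for CAGGTG, 16.0% for AP-1, 5.42% for RUNX and 3.65% for SOX. For 4 motifs the interval of the late transient regions lay above that of the early ones (CAGGTG, the TEAD motif CATTCCA, the TFAP2 motif GCCNNNGGC and CTCF), for 3 it lay below (AP-1, RUNX and SOX), and for the other 17 the intervals overlapped. The difference for CAGGTG was 14.3 percentage points (Newcombe 95% interval 11.1–17.6), and that for AP-1 was -18.9 points (-22.5 to -15.2).

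**Figure D3:**
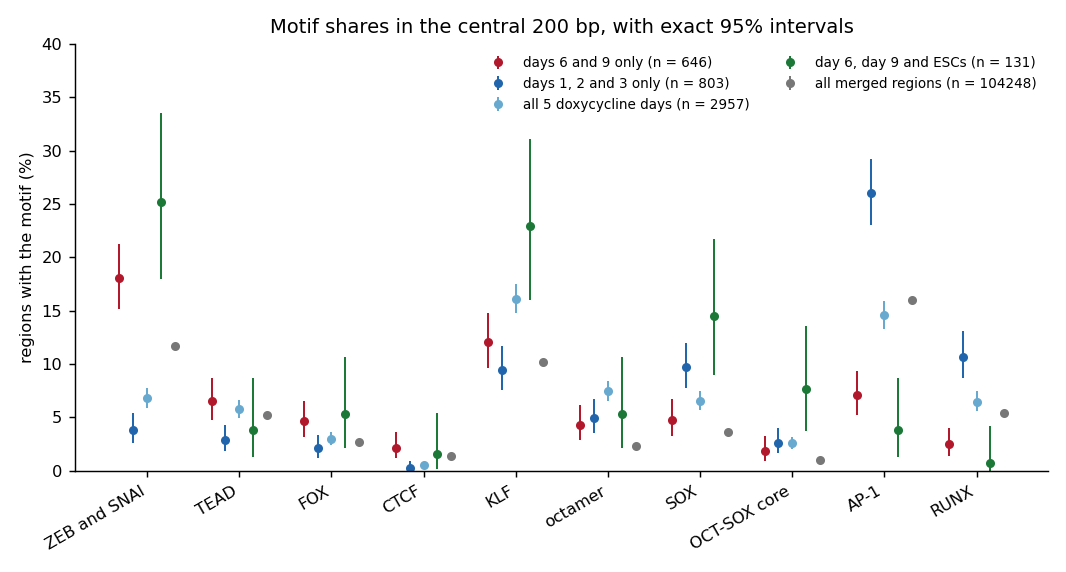
Share of regions (%) with each of 10 motifs in the central 200 bp, for 5 sets of regions, with exact 95% intervals as vertical bars. Late transient regions (red) hold CAGGTG, labelled ZEB and SNAI here, in 18.1% and AP-1 in 7.12%, whereas early transient regions (dark blue) hold them in 3.86% and 26.0%.

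Comparison with DNA to either side of the midpoint separated motifs that were gathered at the centre from those that were not. The same 24 motifs were counted in the 200 bp windows 300 to 500 bp to either side of the midpoint. These windows were fixed, so in wide regions they began inside the region itself. Regions open on all 5 doxycycline days had a median width of 671 bp (lower quartile 610 bp), so this held for most of them. The upper quartile of region width was 612 bp in early transient and 482 bp in late transient regions. In late transient regions 3 motifs had an interval above that of the flanks. The octamer ATGCAAAT, bound by OCT factors, was in 4.33% (2.90–6.20%) of the centres and 0.851% (0.426–1.52%) of the flanks. The KLF motif was in 12.1% (9.66–14.8%) against 5.73% (4.52–7.14%), and the CTCF motif in 14 of 646 (2.17%, 1.19–3.61%) against 0 of 1292 flanking windows, which allows a share of up to 0.232% at 3 counts (exact upper bound 0.285%). For the other 21 motifs the intervals of centre and flank overlapped, CAGGTG and AP-1 included. The gathering of these 3 motifs was not particular to the late transient regions. In early transient regions the octamer (4.98% against 1.31%) and KLF (9.46% against 5.11%) were also above their flanks. The same held for both in regions of all 5 doxycycline days, and for all 3 in those of day 6 alone and of day 9 alone.

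The CAGGTG share of the late transient regions was 18.1% (15.2–21.3%) in the centre and 13.9% (12.1–15.9%) in the flanks, with overlapping intervals. In early transient regions CAGGTG was scarcer in the centre, with 3.86% against 11.5% (9.94–13.1%) in the flanks, and the regions of all 5 doxycycline days showed the same order, with 6.80% (5.92–7.77%) against 13.2% (12.3–14.1%). AP-1 was gathered in the centre of the early transient regions, 26.0% against 5.60% (4.53–6.84%), but not of the late ones, 7.12% (5.26–9.38%) against 5.96% (4.73–7.39%). RUNX behaved likewise, with 10.7% against 5.35% in early and 2.48% against 3.41% in late transient regions. Hence, for these 3 motifs, the early transient regions differed from their own flanks and the late ones had intervals that overlapped theirs.

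**Figure D4:**
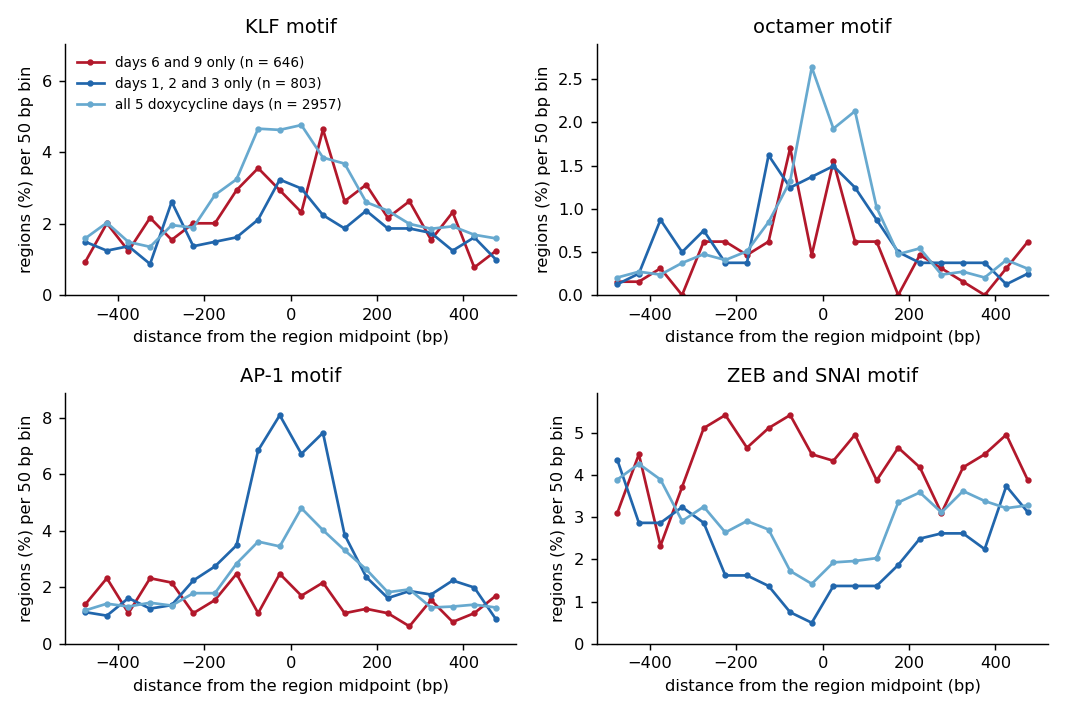
Share of regions (%) with a motif in each 50 bp bin, by distance from the region midpoint (bp), for late transient regions (red), early transient regions (dark blue) and regions open on all 5 doxycycline days (light blue). In each of these sets the KLF and octamer motifs are more frequent near 0 than at the edges. In late transient regions AP-1 and CAGGTG are not, while early transient regions have an AP-1 peak and a CAGGTG trough at the centre.

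Base composition and peak width moved with these sets, and the CAGGTG difference was present within each class of both. CAGGTG was in 8.41% of late transient regions under 45% GC, in 21.5% of those with 45 to 55% and in 27.0% of those over 55%, and in 2.43%, 5.82% and 8.82% of the early transient ones, and the intervals of late and early overlapped only above 55% GC, where the early set has 34 regions. By width of the merged region it was in 17.9% of the late transient regions under 300 bp, 17.4% of those of 300 to under 500 bp and 19.9% of those of 500 bp or wider, and in the early transient ones in 0 of 40, 5.41% and 3.51%. Among all 10 hexamers of the form CANNTG, a set added after these shares were seen, CAGGTG was the one with the highest share in late transient regions. CATATG and CACATG were lower in late (2.94% and 10.7%) than in early transient regions (9.59% and 16.8%), and CAGCTG was near equal (12.2% and 11.2%), so the difference was not shared by the E-boxes as a family.

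The late transient regions were also set beside the 131 late kept regions, which were called on the same days and also in ESCs. CAGGTG was in 33 of the 131 late kept regions (25.2%), with an interval that overlapped that of the late transient ones. Among motifs of the introduced factors, 3 had an interval above that of the late transient regions. The OCT-SOX core was in 7.63% (3.72–13.6%) of them and 1.86% (0.963–3.22%) of the late transient regions, SOX in 14.5% (8.96–21.7%) and 4.80%, and KLF in 22.9% (16.0–31.1%) and 12.1%. For KLF the difference was -10.8 points but -1.24 points when peaks of at least 300 bp alone were merged, and the octamer, which shares bases with the OCT-SOX core, gave overlapping intervals (5.34% in late kept regions and 4.33%), as did the E-box CACGTG, bound by c-MYC (1.53% and 3.41%). No motif had an interval higher in the late transient than in the late kept regions, a set of few regions with wide intervals.

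Regions with a peak on a single late day had similar shares of CAGGTG, KLF and AP-1. CAGGTG was in 14.8% (13.7–15.9%) of the regions with a peak on day 6 alone and in 16.7% (15.0–18.5%) of those of day 9 alone, and KLF in 10.3% and 11.6%, all with intervals that overlapped those of the late transient regions. The octamer shares were 2.37% (1.94–2.87%) and 2.38% (1.73–3.19%), and of these only the former interval lay below that of the late transient regions. AP-1 was in 5.97% and 5.59%, and TSS-proximal positions made up 8.26% and 8.17%, with overlapping intervals. The median GC content was 47.5% in both sets, with means of 3.15 and 3.31 CpG. Low AP-1 shares and the higher GC content were thus not particular to the late transient regions. RUNX was in 4.83% (4.21–5.52%) and 3.93% (3.08–4.93%), and only the former interval lay above that of the late transient regions (1.42–3.99%). Over all peaks of a library CAGGTG was at 8.65% for day 0, 11.0% for day 6, 11.3% for day 9 and 19.7% in the ESC library. The AP-1 shares of the same libraries were 19.4%, 11.1%, 9.76% and 5.37%. The late transient regions, with 18.1% and 7.12%, lay above the day 6 and day 9 libraries for CAGGTG and below them for AP-1, on the side of the ESC library, in which they have no peak. The regions called on a single late day lay on the same side for both motifs. For KLF the late transient regions (12.1%) were nearer to the day 6 library (12.5%) than to the ESC library (14.0%).

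**Figure D5:**
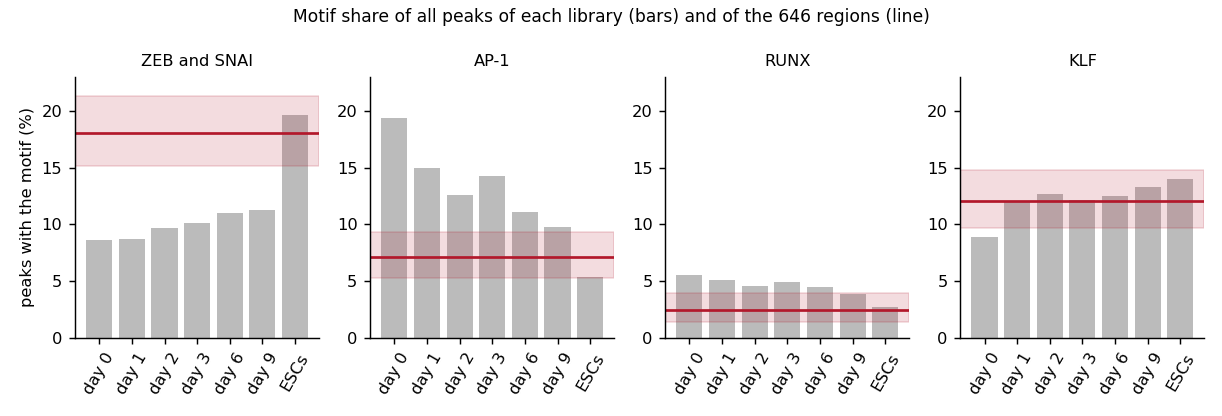
Share of all peaks of each library (grey bars, %) with the ZEB and SNAI, AP-1, RUNX and KLF motifs in the central 200 bp, and the share in the 646 late transient regions (red line, with its exact 95% interval shaded). For CAGGTG and AP-1 the red line (18.1% and 7.12%) is nearer to the ESC bar (19.7% and 5.37%) than to the day 6 bar (11.0% and 11.1%). The same holds for RUNX (2.48%, with 2.74% in ESCs and 4.50% on day 6). For KLF the line (12.1%) is nearer to the day 6 bar (12.5%) than to the ESC bar (14.0%).

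In 195 late transient regions (30.2%) at least 2 motifs of the list were found. In 217 regions there was none, 234 had 1, 138 had 2 and 57 had 3 or more. An octamer, OCT-SOX core, SOX or KLF motif was present in 138 regions, and the other 508 had none of them in the central 200 bp. These counts were made for the late transient regions alone, so they show neither a lack nor an excess. Singly, the octamer was in 4.33% of them and 2.28% of all merged regions, and the OCT-SOX core in 1.86% and 1.03%. SOX was in 4.80% and 3.65% and KLF in 12.1% and 10.2%, and only the octamer intervals did not overlap. CAGGTG occurred once in 112 regions and more than once in 5, and 12 regions had it together with AP-1. With CAGGTG, SOX was found in 1 of 117 regions and without it in 30 of 529 (5.67%), and KLF in 13.7% and 11.7%, with overlapping intervals in both cases.

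Each region was assigned to the nearest protein-coding gene, which spread the 646 regions over 615 of 21924 genes (2.81%). Single regions were the rule, with 590 genes having 1, 22 having 2, and 3 genes having more. Auts2, a neurodevelopmental gene, was nearest to 5, out of 77 merged regions of all kinds at this gene. Macrod2 was nearest to 3 of its 22. Ccdc60 was nearest to 3 of its 9 regions (33.3%), and these form the only run of 3 with less than 50 kb between neighbours, at chr5:116269143-116320694. Over those 51.6 kb there were 4 peaks on day 6, 4 on day 9, 1 each on days 0, 1 and 3, none on day 2 and 2 in ESCs. By the rule each of the 3 regions has a peak on day 6 and on day 9 and none in another library. The higher counts of these 2 days thus follow from the selection and say nothing further about the locus. Elsewhere the regions were scattered, with 15 runs of 2 and 613 regions without a neighbour. Chromosome 11 had the highest density, 0.451 per Mb, and the X chromosome, with 14 regions, the lowest of those with any, 0.0819 per Mb. As a share of the merged regions of the same chromosome these were 0.828% and 0.571%, beside 0.619% of all merged regions. By this share the X chromosome was near the whole, and the lowest value of those with any was that of chromosome 15 (0.457%).

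The gene lists of pluripotency, germ layers, signalling and somatic identity caught few of the regions. Of 403 listed genes 20 (4.96%) were nearest to a late transient region, beside 2.81% of all protein-coding genes. Listed genes had a median of 6 merged regions of any kind and all genes a median of 2, and genes with more regions had more of these: among genes with 20 or more regions, 15.7% of the listed and 17.6% of all genes had a late transient region, and among those with 5 to 9, 5.83% and 4.13%. In genes with similar numbers of regions the shares of listed and of all genes were thus close.

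Among pluripotency genes 4 of 36 had such a region, all far from the TSS and none a core factor of the ESC network. That of Tbx3, a T-box factor, lay 140332 bp upstream with a day 6 peak of 519 bp and a day 9 peak of 436 bp. That of Myc, one of the introduced factors, lay 190692 bp upstream, with 241 and 259 bp, and that of Mycn was at the 200 bp limit on day 9. Of 52 genes of the Nodal, BMP, FGF and Wnt pathways 4 had one, namely the inhibitory Smad genes Smad6 and Smad7 and the Wnt effectors Tcf7l1 and Tcf7l2. The 2 regions of Smad7 lay in introns of its neighbours Ctif and Dym. In the region in Dym the peaks of both days shared only 18 bp, and an ESC peak lay 128 bp away. The region of Smad6 lay in its intron with peaks of 373 and 239 bp, and that of Tcf7l1 had 502 and 201 bp.

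Epithelial genes had 2 of 39, Krt18, with peaks of 504 and 525 bp, and the desmosomal gene Pkp2, with 224 and 466 bp. The Krt18 region was among the 10 ranked highest by the narrower of the 2 widths. Mesenchymal, fibroblast, trophoblast, endoderm, neural crest, germline, chromatin and p53 lists had 1 each. These were Cd44, with peaks of 284 and 200 bp, Nfib with 394 and 200 bp, Gcm1, the trophoblast factor, with 208 and 299 bp, Gata4 with 200 bp on both days, Msx1 with 218 and 243 bp, Nanos3, a germ cell gene, with 444 and 394 bp, the de novo methyltransferase gene Dnmt3a with 262 and 210 bp, and the p53 target Btg2 with 224 and 209 bp. The peaks of the 2 days shared only 22 bp at Gcm1 and 58 bp at Msx1. The Gcm1 region lay 257 bp from a day 0 peak. Cd44 was also the only one of 15 surface markers of reprogramming stages with such a region. No region was assigned to any of the 32 epidermal genes (interval up to 10.9%), of the 9 genes of the 9TR network (up to 33.6%), or of the 23 AP-1, Runx, Tead and Cebp genes (up to 14.8%). All these intervals include the 2.81% of all protein-coding genes. Of those 23 genes 8 had an early transient region, beside 749 of all 21924 protein-coding genes. These 23 had a median of 13 merged regions of any kind and all genes a median of 2. Endothelial and blood cell genes, listed as markers of other cells a MEF culture can hold, had Cldn5, 63 bp from a day 0 peak, and Csf1r, 19 bp from one.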

How the data were processed

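ATAC-seq peaks of 7 mouse libraries were analysed, 1 per time-point, grouped by time-point from the labels. Per the study's methods and the submitters' processing notes, Trimmomatic was run on the paired-end reads, Bowtie2 with mm10 as genome, then SAMtools, and Picard for duplicates. The authors brought all libraries to one depth and ran MACS2 per library, with shifted and extended cut sites and a q-value of 0.05. Deposited were peak positions alone (3 columns), without any score or read count, and no peak is under 200 bp, so a narrow peak is near the limit of the call. Depth per library is not given in the sources used here.

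Peaks were merged in Python 3.11.15 (numpy 2.4.6, scipy 1.17.1, pysam 0.24.0, matplotlib 3.10.9). The 104346 regions were equal to those of BEDTools 2.31.1, and on simulated data 100% of 1000 planted presence patterns and 100% of 4800 planted motifs were found. Positions used GENCODE M21, and distances run from the region midpoint to the nearest TSS of a protein-coding transcript, up to 1000 kb. Sequences came from RefSeq's GRCm38.p6 (mm10), and no peak ran past a chromosome end. The 24 motifs were searched on both strands in the central 200 bp. Besides those spelled out in the text they were the FOX motif (GTAAACA), that of ESRRB (TCAAGGTCA), that of GRHL factors (AACNGGTT), that of ETS factors (CCGGAAG), that of CEBP factors (TTGCNNAA), that of the GLI factors (TGGGTGGTC), that of the STAT factors (TTCCNGGAA), that of the TCF and LEF factors (ATCAAAG), that of NRF1 (GCGCANGCG), that of OTX factors (TAATCC), and the GATA, CTCF, p53 and CArG box motifs. The octamer and the OCT-SOX core can overlap. Soft-masked bases stand for repeats.

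The regions, motifs and 17 gene lists were chosen with earlier results of these data known. Regions named are the 10 with the largest narrower width of the 2 days (a span where a day had several peaks), the 10 of that kind near a TSS, those nearest to a listed gene (up to 4 per list), runs of 3 or more, and genes with 3 or more. Alternatives covered merging, minimum width, neighbouring peaks, the window and gene assignment. Flanking windows, CANNTG hexamers and splits by GC and width were added after the shares were seen. No test between libraries was made. Values of 1 listed gene are not reported here.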

Additional observations from a re-analysis of the deposited data

How the results depend on the processing

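Of 127 recomputed values 105 stayed within their limits (the exact or Newcombe 95% interval for shares and differences, 1.5 times for counts and medians), 22 moved beyond them, and no difference changed sign. The number of late transient regions, 646, became 360 with peaks of at least 300 bp, 983 with the day 0 peaks ignored and 1286 with the day 3 peaks ignored, so 1 library decided much of the membership. TSS-proximal regions were 11.8% with the TSSs of all genes and 10.6% with peaks of at least 300 bp. Over whole regions, which are longer windows, the shares were 28.3% for CAGGTG, 12.7% for AP-1, 8.05% for RUNX, 20.0% for KLF, 7.74% for SOX, 10.5% for TEAD and 8.67% for FOX, and the differences were -24.2 points (AP-1, late minus early transient), -13.0 (RUNX) and -21.3 (KLF, late transient minus late kept). With peaks of at least 300 bp they were 14.7% for CAGGTG, 4.72% for RUNX, 16.9% for KLF and 3.61% for CTCF, and the differences -4.26 points (RUNX) and -1.24 (KLF against late kept); the cause was not tested. With regions within 10 kb of the gene body, 12 listed genes were found in place of 20, 2.98% of them beside 2.26% of all genes. No paired analysis was possible because the series holds 1 library per time-point. Without read counts per peak, a call missed at the common depth cannot be told from a closed site, and intervals cover counting error only.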
